A study of Mus musculus with 9 samples.

Results

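The glutathione transferases (GSTs) and the aldehyde dehydrogenases (ALDHs) were followed in mammary luminal differentiated (LD) cells and in mammary organoids. The members are all genes whose symbol places them in the cytosolic or mitochondrial GST classes (Gsta, Gstk, Gstm, Gsto, Gstp, Gstt, Gstz), the microsomal GSTs (Mgst) or the ALDHs, and that had a probe set of their own on the array. There were 43 of them, 23 GSTs and 20 ALDHs, among 18194 genes measured. The choice used names alone and no measured value.

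RNA of C57BL/6J mouse mammary cells was measured in 9 samples on Affymetrix expression arrays, as biological replicas A, B and C of 3 kinds. LD cells (EpCAM-high, CD49f-low, CD61-) were sorted from the glands of adult virgin females and used fresh. Organoids from MaSCs grew from the sorted fraction enriched in mammary stem cells (MaSCs), and organoids from yMaSCs grew from LD cells that had been made colony-forming by lentiviral, doxycycline-inducible expression of wild-type YAP together with rtTA. Both kinds of organoid were kept in Matrigel under a medium with EGF, bFGF, heparin, noggin and R-Spondin1, without doxycycline, so that passage from fresh to cultured cells and passage from LD cell to organoid cannot be told apart here. The labels do not say what samples of 1 letter share, and p-values measure the spread between these samples.

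GSTs join glutathione to electrophilic compounds, which makes these more soluble and ready for export, and several of them also reduce peroxides or isomerize small molecules. ALDHs oxidize aldehydes to acids, and among them ALDH1A enzymes such as that of Aldh1a3 turn retinal into retinoic acid. Many GST genes are targets of the transcription factor Nrf2 (encoded by Nfe2l2), which binds antioxidant response elements in their promoters and is held back by Keap1. In the mammary gland, ALDH activity and Aldh1a3 are used as marks of luminal progenitors.

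The array values are log2 intensities, a level that depends on each probe set and is therefore compared between samples and never between genes. Over all genes, the lower quartile of an array lay between 3.86 and 4.05, and where all 3 arrays of the lower group were under it, the difference is given as a lower limit. A gene was called where limma's fit of the 3 groups gave it an adjusted p (Benjamini-Hochberg, 18194 genes) under 0.05, and intervals are 95% confidence intervals of the log2 difference.

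The labelled cell types were set against markers, taken as the log2 of the summed intensities of a list. Luminal epithelial genes summed to 16.21 to 16.34 in LD cells and 14.98 to 15.30 in organoids, and basal genes to 11.84 to 12.20 and 12.51 to 13.78, with Trp63 of the basal list under the lower quartile in all 3 LD samples. Such a sum is set mostly by the brightest genes of its list. Of the 8 basal genes, 6 were called higher in organoids from MaSCs (75%, against 22.1% of all genes) and none lower. In organoids from yMaSCs 7 were higher (87.5%, against 21.6%) and none lower. The median difference of the basal genes was 3.41 and 3.25 log2. All 7 leukocyte genes were called lower in both kinds of organoid (100%, against 15.2% and 14.3% of all genes). Their sums were 10.42 to 11.07 in LD cells and 7.23 to 7.69 in organoids, with Ptprc under the lower quartile in every organoid. LD cells B stood apart from LD cells A and C. Its adipocyte sum was 10.94 against 5.40 and 5.41, carried by Fabp4 (10.92 against 4.20 and 3.70) while Adipoq, Cidec and Lep stayed under the lower quartile, its endothelial sum was 8.16 against 6.24 and 6.36, and its fibroblast sum 12.47 against 10.50 and 11.09 (9.55 to 11.23 in organoids). Hormone-sensing luminal genes summed to 13.13 to 13.40 in LD cells and 10.35 to 11.06 in organoids A and B, with 12.29 and 11.49 in organoids C from MaSCs and from yMaSCs. Dividing-cell genes summed to 10.21, 7.85 and 9.61 in LD cells A, B and C. Among organoids they summed to 7.12 to 7.60 in A and B, but to 9.79 and 9.71 in C of either kind. Fewer cells of a type and less RNA per cell cannot be told apart in such samples.

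Promoters of the members are shown before the values because Nrf2 targets are recognized by a short sequence. Of the 43 members, 35 had an entry in the RefSeq promoter table (GRCm38.p6), and the 250 bases before the start were searched on both strands for the antioxidant response element core TGACNNNGC. It was found for 6 of the 35 members (17.1%), which are Aldh1a2, Aldh9a1, Gsta3, Gstm5, Gstm7 and Mgst1, and for 11.5% of the 27025 genes in the table. The whole 250 bases are printed for Gsta3, the member with the largest difference, and the match with up to 40 bases on each side for the other members that were called in the comparisons below. Each runs 5′ to 3′ on the gene's strand, ends before the start, and has the match in capitals.
Gsta3, chr1:21240335-21240584: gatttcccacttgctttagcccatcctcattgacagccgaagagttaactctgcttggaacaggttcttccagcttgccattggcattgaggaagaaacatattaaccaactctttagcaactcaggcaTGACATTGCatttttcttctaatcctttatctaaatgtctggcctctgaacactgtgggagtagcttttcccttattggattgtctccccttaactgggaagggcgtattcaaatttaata
Mgst1, chr6:138140431-138140519: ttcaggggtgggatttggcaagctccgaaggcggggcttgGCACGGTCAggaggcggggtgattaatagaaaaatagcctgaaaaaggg
Gstm5, chr3:107895772-107895853: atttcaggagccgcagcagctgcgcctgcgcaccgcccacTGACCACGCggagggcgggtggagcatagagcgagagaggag
Gstm7, chr3:107931695-107931783: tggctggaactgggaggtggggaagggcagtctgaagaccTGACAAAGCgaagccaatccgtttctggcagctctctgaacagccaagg
Aldh9a1, chr1:167349864-167349952: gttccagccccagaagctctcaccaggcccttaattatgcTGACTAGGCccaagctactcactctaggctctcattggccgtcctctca
The gene lies on the minus strand for Gstm7 and on the plus strand for the others. The match was on the gene's strand in all but Mgst1, where it is on the other strand, and it began 121 bases before the start in Gsta3, 56 in Mgst1, 42 in Gstm5, 129 in Gstm7 and 87 in Aldh9a1. Some genes have more than 1 entry, 2 each for Gstm7 and Mgst1, and the distance is to the start of the entry that holds the match. That start need not be the one used in these cells. A match is a run of letters and not a measured binding site. Aldh9a1, which has one, was lower in organoids, and of the 13 members higher in organoids from MaSCs that have a promoter entry, 4 held it. The amino acid response element core TGATGNAA, searched in the same way, was in none of the 35 members and in 3.91% of genes in the table.

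Against LD cells, GSTs and ALDHs moved in both directions, with more members higher than lower. In organoids from MaSCs 16 of the 43 members were called higher (37.2%, against 22.1% of all genes) and 7 lower (16.3%, against 15.2%). In organoids from yMaSCs 16 were called higher (37.2%, against 21.6% of all genes) and 6 lower (14%, against 14.3%). The share higher was thus above that of all genes and the share lower close to it. These comparisons share the LD samples. In both, 15 members were higher and 6 lower, none was called in opposite directions, and 19 were called in neither. The median difference over the members was 0.49 and 0.52 log2, against -0.02 and -0.01 over all genes. GSTs made up most of the rise, with 11 of 23 higher and 3 lower in organoids from MaSCs and 12 and 2 in organoids from yMaSCs. Of the 20 ALDHs, 5 were higher and 4 lower in organoids from MaSCs (25% and 20%), and 4 and 4 in organoids from yMaSCs (20% and 20%). The ALDH share higher was thus near that of all genes. Without LD cells B, 18 members were higher and 6 lower in either kind. Of the 18194 genes, 3787 were then higher and 2754 lower in organoids from MaSCs, and 3701 and 2661 in organoids from yMaSCs. Without both organoids C, 16 members were higher and 5 lower in organoids from MaSCs, and 18 and 5 in organoids from yMaSCs. All genes then gave 3847 higher and 2557 lower in organoids from MaSCs, and 3917 and 2457 in organoids from yMaSCs.

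**Figure D1:**
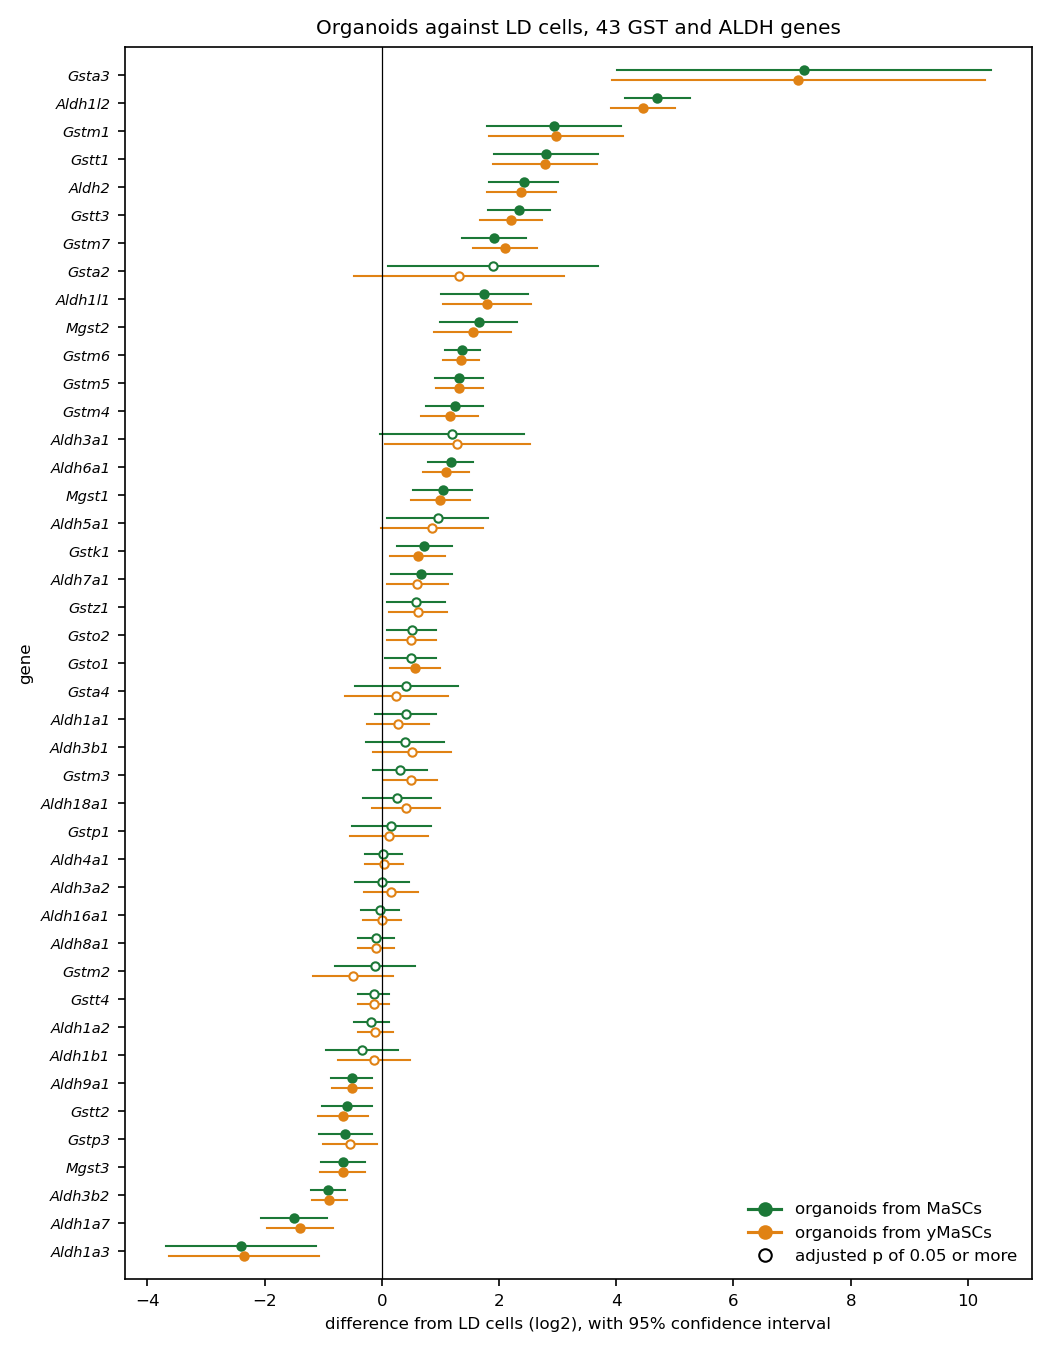
Log2 difference from LD cells of each of the 43 genes (vertical axis, ordered by the difference in organoids from MaSCs), in organoids from MaSCs (green) and from yMaSCs (orange), with bars for the 95% confidence interval and filled points for an adjusted p under 0.05. The points of the 2 kinds of organoid lie close together, from 7.20 and 7.10 for Gsta3 to -2.40 and -2.35 for Aldh1a3.

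Gsta3, an alpha class enzyme known for its activity on aflatoxin epoxide, showed the largest difference of all members. Its level was 2.79, 3.21 and 3.29 in LD cells A, B and C, 11.59, 12.05 and 7.26 in organoids from MaSCs, and 11.29, 11.82 and 7.49 in organoids from yMaSCs. The LD samples were all near the floor of the array, and organoids C of both kinds were well below organoids A and B but far above the LD cells. The rise was 7.20 log2 in organoids from MaSCs (interval 4.02 to 10.39, adjusted p = 0.00359, limma) and 7.10 in organoids from yMaSCs (3.92 to 10.29, adjusted p = 0.00405, limma), and both are lower limits. Single arrays moved this size: it was 6.56, 6.33 and 8.72 without organoids from MaSCs A, B or C, and 6.56, 6.29 and 8.46 without organoids from yMaSCs A, B or C. The other Gsta3 probe set gave 3.46 and 3.40, with organoids C at 4.17 and 4.73.

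The other alpha genes were not called. Gsta2 was 3.69, 3.19 and 4.15 in LD cells, 5.27, 3.84 and 7.62 in organoids from MaSCs and 4.91, 4.75 and 5.34 in organoids from yMaSCs. Organoids C from MaSCs alone stood out, and the differences were 1.90 (interval 0.11 to 3.69, adjusted p = 0.0917, limma) and 1.32 (-0.47 to 3.11, adjusted p = 0.231, limma). Gsta4, which acts on lipid peroxidation products such as hydroxynonenal, differed by 0.42 and 0.25 log2, with intervals reaching from -0.63 to 1.30.

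Most of the mu class rose. In the assembly GRCm38.p6 its genes follow each other in the order Gstm5, Gstm7, Gstm6, Gstm3, Gstm2, Gstm1, Gstm4 with no other protein-coding gene between them, and 5 of these 7 were called higher in both kinds of organoid (71.4%, against 22.1% and 21.6% of all genes). Gstm3 and Gstm2, which stand in the middle, were not called. The count takes Gstm7 by 1 of its 2 probe sets, and the other showed no rise. Mu genes are close paralogs, and probe sets of 1 may take up RNA of another.

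Gstm1, the main mu enzyme of many tissues, was 7.41, 8.33 and 7.74 in LD cells A, B and C, 10.94, 11.49 and 9.86 in organoids from MaSCs, and 11.03, 11.48 and 9.88 in organoids from yMaSCs. Every organoid was above every LD sample, and organoids C were again the lowest. The rise was 2.94 log2, or 7.66-fold (interval 1.80 to 4.08, adjusted p = 0.00183, limma), and 2.97 (1.83 to 4.11, adjusted p = 0.00182, limma). Its other 3 probe sets rose by 1.36 to 2.91 log2 in organoids from MaSCs.

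Gstm7 was 3.99, 3.80 and 4.53 in LD cells, 5.88, 6.31 and 5.88 in organoids from MaSCs, and 6.17, 6.59 and 5.88 in organoids from yMaSCs. The rise was 1.92 log2 (interval 1.37 to 2.46, adjusted p = 0.000345, limma) and 2.11 (1.56 to 2.65, adjusted p = 0.000218, limma). A second Gstm7 probe set differed by -0.12 and 0.01 log2 and was not called, and with the mean of both probe sets the rise came to 0.90 and 1.06. In LD cells the second probe set was the brighter, at 5.26, 5.41 and 5.27. The first stood for the gene by its mean over the 9 arrays, 6 of them organoids. So for this gene the size depends on the probe set, and the second alone gave no call.

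The remaining 3 mu genes rose by similar amounts and with little spread. Gstm6 was 3.76, 4.11 and 4.10 in LD cells, 5.50, 5.36 and 5.21 in organoids from MaSCs and 5.43, 5.37 and 5.21 in organoids from yMaSCs, a rise of 1.37 log2 (interval 1.07 to 1.67, adjusted p = 8.48e-05, limma) and 1.35 (1.05 to 1.65, adjusted p = 0.000104, limma). Gstm5, a mu enzyme abundant in brain and testis, was 9.01, 9.69 and 9.69 in LD cells, 10.69, 10.81 and 10.83 in organoids from MaSCs and 10.70, 10.86 and 10.80 in organoids from yMaSCs. It rose by 1.31 log2 (interval 0.91 to 1.72, adjusted p = 0.000533, limma) and 1.32 (0.92 to 1.73, adjusted p = 0.000551, limma), and its 6 organoid values lay within 10.69 to 10.86. Gstm4 was 6.24, 6.46 and 7.11 in LD cells, 7.63, 7.95 and 7.94 in organoids from MaSCs and 7.66, 7.90 and 7.72 in organoids from yMaSCs, a rise of 1.24 log2 (interval 0.75 to 1.72, adjusted p = 0.0019, limma) and 1.16 (0.67 to 1.64, adjusted p = 0.00283, limma). In none of the 3 did an organoid overlap with an LD sample.

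Between them, Gstm3 differed from LD cells by 0.31 log2 (interval -0.15 to 0.77) and 0.49 (0.03 to 0.94). A second, dimmer Gstm3 probe set, at 4.56 to 5.06, differed by -0.20 and -0.15 log2 and was not called. Gstm2 differed by -0.12 (-0.80 to 0.56) and -0.49 (-1.17 to 0.19). The Gstm2 intervals end below the rise of any called mu neighbor, and its level of 6.37 to 7.61 over the 9 arrays was above the lower quartile throughout.

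Theta genes moved in opposite directions within 1 run. Theta enzymes act on small halogenated compounds, and in GRCm38.p6 their genes are adjacent in the order Gstt3, Gstt1, Gstt4, Gstt2. Gstt1 was 7.18, 8.88 and 7.56 in LD cells A, B and C, 10.61, 10.94 and 10.46 in organoids from MaSCs and 10.53, 10.99 and 10.45 in organoids from yMaSCs. LD cells B was the highest of the LD samples and still below every organoid. The rise was 2.80 log2, or 6.95-fold (interval 1.91 to 3.68, adjusted p = 0.00061, limma), and 2.78 (1.90 to 3.67, adjusted p = 0.000671, limma). Gstt3 was 8.08, 7.74 and 8.46 in LD cells, 10.34, 10.68 and 10.29 in organoids from MaSCs and 10.20, 10.70 and 9.98 in organoids from yMaSCs. It rose by 2.34 log2 (interval 1.81 to 2.87, adjusted p = 9.83e-05, limma) and 2.20 (1.67 to 2.73, adjusted p = 0.000149, limma). Gstt2, at the far end of the run, went the other way, from 8.54, 8.36 and 8.73 in LD cells to 7.62, 8.09 and 8.15 in organoids from MaSCs and 7.57, 7.99 and 8.08 in organoids from yMaSCs. It fell by 0.59 log2 (interval -1.02 to -0.16, adjusted p = 0.0373, limma) and by 0.66 (-1.09 to -0.23, adjusted p = 0.0236, limma). That call was lost in organoids from MaSCs without LD cells A, LD cells C, organoids from MaSCs A or B or organoids from yMaSCs B (-0.66 to -0.42, adjusted p from 0.0536 to 0.128, limma), and in organoids from yMaSCs without LD cells A, LD cells C or organoids from yMaSCs A (-0.66 to -0.51, adjusted p from 0.0572 to 0.0821, limma). Gstt4 was under the lower quartile on all 9 arrays, at 2.98 to 3.41.

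Microsomal GSTs are membrane proteins unrelated in sequence to the cytosolic classes. Mgst1, which conjugates glutathione and reduces lipid peroxides in the endoplasmic reticulum and outer mitochondrial membrane, was 12.65, 12.49 and 12.86 in LD cells, 13.89, 13.88 and 13.35 in organoids from MaSCs and 13.92, 13.85 and 13.23 in organoids from yMaSCs. It rose by 1.04 log2 (interval 0.54 to 1.54, adjusted p = 0.00553, limma) and 1.0 (0.50 to 1.50, adjusted p = 0.00705, limma), and organoids C were its lowest organoids. A second Mgst1 probe set, at 3.34 to 4.31 on the arrays, gave 0.55 (adjusted p = 0.0405, limma) and 0.35 (adjusted p = 0.172, limma) when it stood for the gene, so that the call in organoids from yMaSCs was lost. Mgst2, which can form leukotriene C4, was 5.71, 6.05 and 5.97 in LD cells, 7.66, 7.10 and 7.92 in organoids from MaSCs and 8.04, 7.37 and 6.96 in organoids from yMaSCs. Its rise was 1.65 log2 (interval 0.99 to 2.31, adjusted p = 0.00212, limma) and 1.55 (0.89 to 2.21, adjusted p = 0.00311, limma).

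Mgst3 went down with its neighbor Aldh9a1. No protein-coding gene lies between them in GRCm38.p6. Mgst3, a membrane enzyme with peroxidase activity, was 10.01, 10.63 and 10.30 in LD cells, 9.45, 9.70 and 9.80 in organoids from MaSCs and 9.61, 9.77 and 9.56 in organoids from yMaSCs, a fall of -0.66 log2 (interval -1.04 to -0.28, adjusted p = 0.013, limma) and -0.67 (-1.05 to -0.29, adjusted p = 0.013, limma). Without organoids from MaSCs A it was -0.56 in organoids from MaSCs and no longer called (adjusted p = 0.0539, limma). Aldh9a1, an enzyme of carnitine synthesis, was 10.22, 9.77 and 10.08 in LD cells, 9.63, 9.63 and 9.27 in organoids from MaSCs and 9.54, 9.63 and 9.38 in organoids from yMaSCs. It fell by 0.51 log2 in either kind (adjusted p = 0.0277 and 0.0301, limma). Its call was lost in organoids from MaSCs without LD cells A, LD cells C or organoids from MaSCs C (-0.48 to -0.39, adjusted p from 0.0739 to 0.0895, limma), and in organoids from yMaSCs without LD cells A, LD cells C or organoids from yMaSCs A or C (-0.52 to -0.41, adjusted p from 0.0704 to 0.0917, limma). A second Aldh9a1 probe set, at 8.31 to 8.96, differed by -0.31 and -0.24 log2 and was not called. With the mean of both probe sets the Aldh9a1 call in organoids from yMaSCs was lost.

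The other GST classes differed less. Gstp1, the abundant pi enzyme, was 11.22 to 12.30 in LD cells and 11.45 to 12.22 in organoids, and its difference was 0.16 log2 (interval -0.51 to 0.84) and 0.12 (-0.55 to 0.79). Gstp3, a paralog in the same cluster, was called lower in organoids from MaSCs (-0.62, adjusted p = 0.0379, limma), with -0.54 in organoids from yMaSCs (adjusted p = 0.0628, limma), and the difference between the kinds was not called. That call was lost without LD cells B or C, organoids from MaSCs A, B or C, or organoids from yMaSCs A (-0.66 to -0.49, adjusted p from 0.0563 to 0.117, limma). Gstk1, the mitochondrial and peroxisomal GST, was higher by 0.72 (adjusted p = 0.0214, limma) and 0.61 (adjusted p = 0.0453, limma). Its call was lost in organoids from MaSCs without LD cells A or organoids from MaSCs A or C (0.55 to 0.70, adjusted p from 0.0559 to 0.0721, limma), and in organoids from yMaSCs without LD cells A or C, any of the organoids from MaSCs, or organoids from yMaSCs A or B (0.43 to 0.68, adjusted p from 0.0618 to 0.15, limma). Gsto1, which reduces dehydroascorbate, was 0.49 above LD cells in organoids from MaSCs (adjusted p = 0.0768, limma) and 0.57 in organoids from yMaSCs (adjusted p = 0.0451, limma), and the second call was lost without any single array other than LD cells B (0.43 to 0.62, adjusted p from 0.0602 to 0.139, limma). Its neighbor Gsto2 (0.51 and 0.50) and Gstz1, an enzyme of tyrosine breakdown (0.59 and 0.61), were not called, and all LD samples were under the lower quartile for Gsto2.

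**Figure D2:**
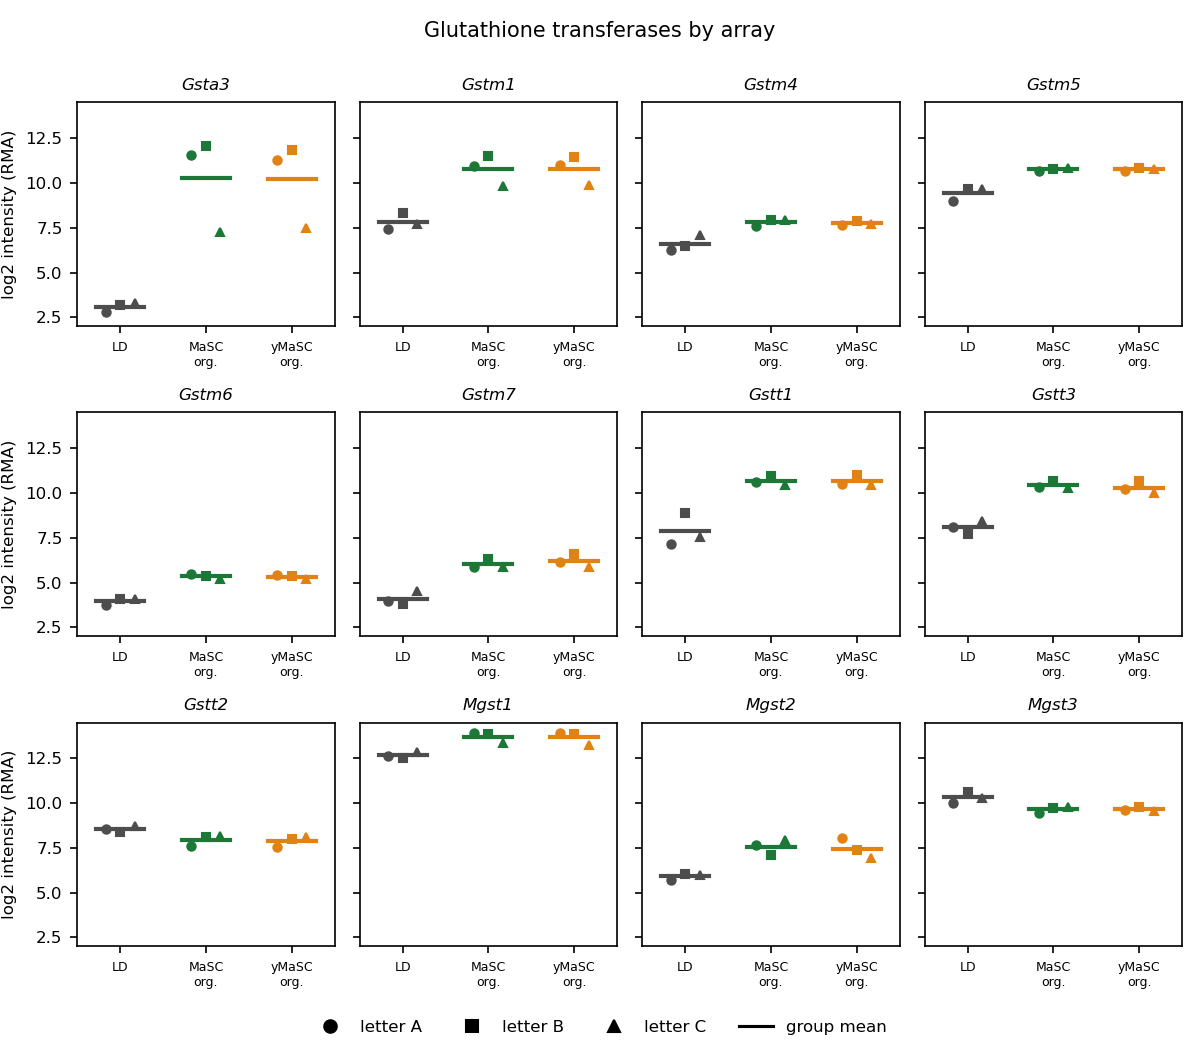
Log2 intensity of 12 GST genes (vertical axis) in the 3 kinds of sample (LD cells, then organoids from MaSCs, then those from yMaSCs), with 1 symbol per array by letter and a line for the group mean. Levels of different genes are not comparable. Organoids C lie below A and B for Gsta3 (7.26 and 7.49), Gstm1 and Mgst1, and Gstt2 and Mgst3 are the panels in which organoids lie below LD cells.

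Among the ALDHs, Aldh1a3 fell. It makes retinoic acid from retinal. Its level was 11.41, 12.84 and 11.14 in LD cells A, B and C, 8.82, 8.97 and 10.40 in organoids from MaSCs, and 9.41, 8.83 and 10.11 in organoids from yMaSCs. Every organoid was below every LD sample, LD cells B was the highest, and organoids C were the highest organoids. The fall was -2.40 log2, or 5.28-fold (interval -3.68 to -1.12, adjusted p = 0.00926, limma), and -2.35 (-3.63 to -1.07, adjusted p = 0.0106, limma). All 3 Aldh1a3 probe sets moved this way, by -2.17 to -3.18 log2 in organoids from MaSCs. LD cells had been sorted as CD61-, and the other genes of the 6 on the luminal progenitor list were each higher or not called. Elf5, a transcription factor of luminal progenitors and alveolar cells, rose by 2.78 and 2.73 log2 (adjusted p = 0.000172 and 0.000204, limma), and Tspan8 rose by 1.58 in organoids from MaSCs (adjusted p = 0.0411, limma) with 1.29 in organoids from yMaSCs (adjusted p = 0.0874, limma). Kit (0.19 and 0.56), Cd14 (0.29 and 0.17) and Itgb3 (0.62 and 0.59), which encodes CD61, were not called.

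Aldh1a7, a rodent paralog next to Aldh1a1, also fell, from 6.18, 5.74 and 5.60 in LD cells to 4.46, 3.98 and 4.59 in organoids from MaSCs and 4.65, 4.68 and 3.98 in organoids from yMaSCs. The fall was -1.50 log2 (interval -2.06 to -0.94, adjusted p = 0.00148, limma) and -1.40 (-1.96 to -0.84, adjusted p = 0.00221, limma). Its organoid values, 3.98 to 4.68, reached down to near the lower quartile. Of the ALDH1A genes, Aldh1a1 and Aldh1a2 were near the floor in every sample. Aldh1a1 lay between 3.51 and 4.41 and Aldh1a2 between 3.41 and 3.84, the latter under the lower quartile on all 9 arrays, so that no change in either could be read.

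The ALDHs of folate metabolism both rose. They oxidize formyltetrahydrofolate to tetrahydrofolate and carbon dioxide, Aldh1l1 in the cytosol and Aldh1l2 in mitochondria. Aldh1l2 was 4.28, 4.42 and 4.54 in LD cells, 9.44, 8.48 and 9.43 in organoids from MaSCs and 8.83, 8.76 and 9.02 in organoids from yMaSCs. Its rise of 4.70 log2, or 26.1-fold (interval 4.15 to 5.25, adjusted p = 4.69e-06, limma), and 4.46 (3.91 to 5.01, adjusted p = 6.07e-06, limma) had the lowest adjusted p of the members, with LD cells just above the lower quartile. Aldh1l1 was 5.39, 5.08 and 5.85 in LD cells, 6.77, 7.01 and 7.79 in organoids from MaSCs and 6.80, 7.18 and 7.73 in organoids from yMaSCs, a rise of 1.75 log2 (interval 1.01 to 2.49, adjusted p = 0.00293, limma) and 1.80 (1.05 to 2.54, adjusted p = 0.00269, limma). Organoids C were highest here. A second, dimmer Aldh1l1 probe set, at 3.03 to 3.66, gave 0.29 and 0.18 and lost both calls (adjusted p = 0.0876 and 0.293, limma).

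Among mitochondrial ALDHs, Aldh2 and Aldh6a1 rose in both kinds of organoid. Aldh2, which clears acetaldehyde, was 8.60, 8.86 and 9.30 in LD cells, 11.31, 11.71 and 11.01 in organoids from MaSCs and 11.31, 11.68 and 10.91 in organoids from yMaSCs. It rose by 2.42 log2, or 5.36-fold (interval 1.83 to 3.01, adjusted p = 0.000145, limma), and by 2.38 (1.79 to 2.97, adjusted p = 0.000175, limma). All 5 of its probe sets rose, by 1.66 to 2.82 log2 in organoids from MaSCs. Aldh6a1, which acts in valine and thymine breakdown, was 8.55, 8.65 and 8.79 in LD cells, 9.90, 10.05 and 9.57 in organoids from MaSCs and 9.59, 10.07 and 9.61 in organoids from yMaSCs, a rise of 1.18 log2 (interval 0.79 to 1.56, adjusted p = 0.000757, limma) and 1.09 (0.71 to 1.48, adjusted p = 0.0012, limma). Aldh7a1 of lysine breakdown was higher by 0.67 in organoids from MaSCs (adjusted p = 0.0491, limma) and differed by 0.60 in organoids from yMaSCs (adjusted p = 0.0745, limma). With single arrays left out, its call stood only without LD cells B or organoids from yMaSCs B. It was lost without any other single array (0.51 to 0.79, adjusted p from 0.0519 to 0.162, limma). The call was also lost with other normalizations (common median, cyclic loess), array weights, the compared groups alone and without both organoids C, in all in 12 of 20 alternatives. Its other 2 probe sets, at 2.97 to 4.47, gave 0.13 and 0.24 in organoids from MaSCs and -0.04 and 0.34 in organoids from yMaSCs, none called. Aldh5a1 of GABA breakdown differed by 0.95 and 0.85 and was not called, and LD cells B, at 5.15, lay below LD cells A and C at 6.62 and 6.80.

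The ALDH3 genes, whose products oxidize fatty and lipid-derived aldehydes, were mixed. Aldh3b2 fell, from 5.86, 5.84 and 6.03 in LD cells to 4.96, 4.79 and 5.22 in organoids from MaSCs and 4.99, 4.93 and 5.12 in organoids from yMaSCs, by -0.92 log2 (interval -1.21 to -0.63, adjusted p = 0.000617, limma) and -0.90 (-1.19 to -0.60, adjusted p = 0.000755, limma). Aldh3b1 was 6.44, 6.23 and 6.70 in LD cells, 6.90, 7.20 and 6.46 in organoids from MaSCs and 7.13, 7.44 and 6.35 in organoids from yMaSCs. Organoids C sat among the LD samples while A and B were above them, and the differences of 0.40 (interval -0.27 to 1.06, adjusted p = 0.325, limma) and 0.52 (-0.15 to 1.18, adjusted p = 0.208, limma) were not called. Aldh3a1 differed by 1.20 (interval -0.03 to 2.43) and 1.29 (0.06 to 2.52), with organoids spread from 4.56 to 6.50, and was not called. Its neighbor Aldh3a2, the fatty aldehyde dehydrogenase, differed by 0.01 (-0.45 to 0.47) and 0.15 (-0.31 to 0.61).

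For Aldh4a1 and Aldh18a1, which break down and make proline, for Aldh16a1, and for Aldh1b1 and Aldh8a1, no difference was called. The intervals of Aldh4a1, Aldh16a1 and Aldh8a1 lay within -0.41 to 0.36 log2. Aldh8a1, at 3.81 to 4.28, was near the floor, so that no change in it could be read. Aldh18a1 differed by 0.26 and 0.41 and Aldh1b1 by -0.34 and -0.14, the latter at 3.40 to 4.32, near the floor.

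**Figure D3:**
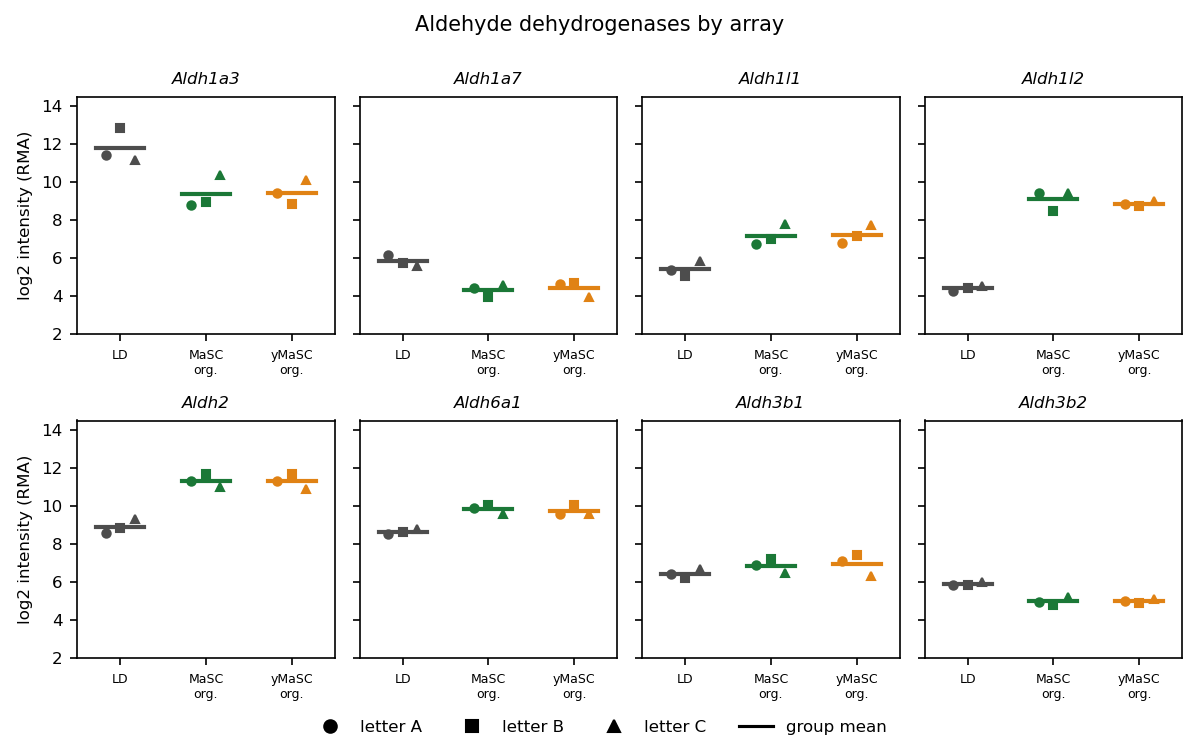
Log2 intensity of 8 ALDH genes (vertical axis) in the 3 kinds of sample (LD cells, then organoids from MaSCs, then those from yMaSCs), with 1 symbol per array by letter and a line for the group mean. Levels of different genes are not comparable. Aldh1a3, Aldh1a7 and Aldh3b2 are lower in every organoid, Aldh1l2 is between 8.48 and 9.44 in organoids and at most 4.54 in LD cells, and organoids C of Aldh3b1 overlap with LD cells.

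Markers of other cell types moved with the LD comparisons, as given above, and their part in these results was not tested. Without LD cells B, whose adipocyte, endothelial and fibroblast sums stood apart, Gsta3, Gstm1, Gstt1, Aldh1l2 and Aldh1a3 differed from LD cells by 7.26, 3.19, 3.30, 4.71 and -1.88 log2 in organoids from MaSCs and all were called.

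Organoids from yMaSCs were set against organoids from MaSCs to see how far YAP-converted cells gave the same levels as endogenous stem cells. None of the 43 members was called (background 0% of genes), and none had an unadjusted p under 0.05 (0 of 43, against 104 of 18194 genes, limma). The letter was left out of this fit, so the spread it used includes the difference between letters. Few genes of any kind had such a p, and the 0 is not read as equal levels. Differences ran from -0.58 log2 (Gsta2) to 0.20 (Aldh1b1), with a median size of 0.07. For 36 members the interval lay within 1 log2 on either side of 0, and for Aldh1a3, Aldh3a1, Gsta2, Gsta3, Gsta4, Gstm1 and Gstm2 it did not. Organoids of 1 letter deviated together, and with the letter as a replicate block in the organoid arrays alone the intervals of 41 members lay within 1 log2, those of Aldh3a1 and Gsta2 being the exceptions. Gsta3 then differed by -0.10 (interval -0.42 to 0.22) and Aldh1a3 by 0.05 (-0.41 to 0.52). Under this block 1 of the 43 members had an unadjusted p under 0.05, against 596 of 18194 genes (limma). It was Gstm2, which differed by -0.38 (interval -0.75 to -0.01, adjusted p = 0.964, limma).

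Whether the letters of the organoids differed was tested on the 6 organoid arrays, with kind of organoid as a covariate. Members with a letter effect were 6 of 43 (14%), against 5.52% of all genes: Gsta3 (adjusted p = 0.00176, limma), Gstm1 (0.00609), Aldh1l1 (0.0212), Aldh2 (0.034), Aldh3b1 (0.0393) and Mgst1 (0.0414). In 5 of them organoids C were lower than the mean of organoids A and B, by -4.31 log2 for Gsta3, -1.36 for Gstm1, -0.76 for Aldh3b1, -0.60 for Mgst1 and -0.54 for Aldh2, and for Aldh1l1 they were higher by 0.82. Both kinds of organoid showed it: Gsta3 was 7.26 in organoid C from MaSCs and 7.49 in that from yMaSCs, against 11.29 to 12.05 in the 4 organoids A and B. Aldh1a3 was higher in organoids C by 1.25 log2 and just missed the call (adjusted p = 0.0527, limma). With any 1 organoid array left out, no member and no gene was called, a fit with few residual degrees of freedom, while 15 to 20 members then had an unadjusted p under 0.05 against 19 with all 6 arrays. Those are 34.9% to 46.5% of the members and 44.2%, where all genes gave 13.3% to 25.7% and 25.2%.

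Other lists also held genes with a letter effect, set against 5.52% of all genes. These were 5 of 20 Nrf2 targets (25%), 3 of 21 other detoxification enzymes (14.3%) and 2 of 21 retinoid genes (9.52%). Of the glutathione synthesis, reduction and peroxidase genes it was 1 of 20 (5%), and of the 14 regulators of detoxification 0. Dividing-cell, hormone-sensing luminal and basal genes gave 4 of 5 (80%), 3 of 5 (60%) and 2 of 8 (25%) measured genes. Mki67 was 8.37 and 8.30 in organoids C and 4.88 to 5.39 in organoids A and B (letter adjusted p = 0.00153, limma), the hormone-sensing luminal sums were 12.29 and 11.49 in C against 10.35 to 11.06 in A and B, and the basal sums were 13.78 and 13.35 in C against 12.51 to 12.61 in A and B. Their part in the letter effect was not tested. LD cells A, B and C had dividing-cell sums of 10.21, 7.85 and 9.61 and Gsta3 at 2.79, 3.21 and 3.29. A link between these genes was not tested.

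**Figure D4:**
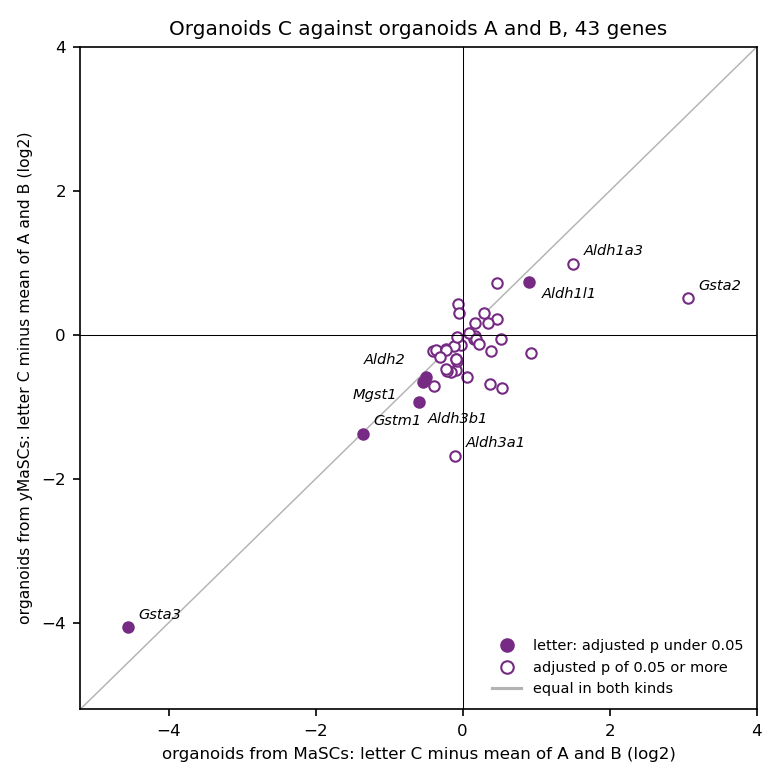
Each of the 43 genes by the log2 difference of organoid C from the mean of organoids A and B, in organoids from MaSCs (horizontal axis) and from yMaSCs (vertical axis), with filled points for a letter effect at an adjusted p under 0.05 and a grey line where both kinds are equal. Gsta3 lies farthest from 0 in both kinds, and Gsta2 is high in organoids C from MaSCs (7.62) but not from yMaSCs (5.34).

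Of 20 measured genes of glutathione synthesis, reduction and peroxidases, 5 were called higher and 6 lower in organoids from MaSCs (25% and 30%, against 22.1% and 15.2% of all genes), and 5 and 5 in organoids from yMaSCs (25% and 25%, against 21.6% and 14.3%). The share higher was near that of all genes. Gpx2, an epithelial glutathione peroxidase, was 5.41, 4.76 and 5.44 in LD cells, 10.29, 9.83 and 9.50 in organoids from MaSCs and 10.98, 10.07 and 9.33 in organoids from yMaSCs, a rise of 4.67 log2 (adjusted p = 4.61e-05, limma) and 4.92 (adjusted p = 3.93e-05, limma). Gclc, the catalytic subunit of the rate-limiting enzyme of glutathione synthesis, was lower in every organoid, at 8.25 to 8.77 against 10.49, 10.50 and 9.54 in LD cells (-1.66 and -1.60, adjusted p = 0.00133 and 0.00169, limma). Chac1, which degrades glutathione, fell by -1.66 and -1.35 (adjusted p = 0.0167 and 0.0405, limma), and Gpx3, a secreted peroxidase, by -1.58 and -1.80 (adjusted p = 0.0212 and 0.0123, limma).

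Of 20 measured Nrf2 targets outside the GST family, 5 were called higher and 10 lower in either kind of organoid, and Gclc is on both lists. The 25% higher was near the share of all genes (22.1% and 21.6%), and the 50% lower was above it (15.2% and 14.3%). Nqo1, the quinone reductase often used as an Nrf2 readout, was 5.94, 8.23 and 7.11 in LD cells and 10.25 to 10.46 in organoids, a rise of 3.31 and 3.21 log2 (adjusted p = 0.000609 and 0.000757, limma). Cbr3, a carbonyl reductase, rose by 2.75 and 2.64 (adjusted p = 4.18e-05 and 5.7e-05, limma). Srxn1, the sulfiredoxin that repairs peroxiredoxins, fell from 8.77, 9.73 and 9.50 to between 6.69 and 7.56, by -2.19 and -2.12 (adjusted p = 0.000809 and 0.00101, limma). Abcc3, an exporter of glutathione and glucuronide conjugates, fell by -3.15 and -3.06 (adjusted p = 0.0039 and 0.00477, limma), and organoids C, at 7.85 and 7.41, lay above the other organoids, at 5.56 to 6.02.

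Of the 14 regulators listed, 3 were called higher and 6 lower in both kinds (21.4% and 42.9%, against 22.1% and 15.2% of all genes in organoids from MaSCs and 21.6% and 14.3% in organoids from yMaSCs). Nfe2l2, which encodes Nrf2, was 9.54, 9.82 and 9.46 in LD cells, 10.91, 10.88 and 10.72 in organoids from MaSCs and 10.92, 10.82 and 10.64 in organoids from yMaSCs, a rise of 1.23 and 1.19 log2 (adjusted p = 0.000123 and 0.000165, limma). Keap1 rose less, by 0.54 and 0.51 (adjusted p = 0.0033 and 0.00482, limma). Maff and Mafk, which encode small Maf proteins that pair with Nrf2, fell by -4.13 and -3.49 and by -2.09 and -1.98. Bach2 and Bach1, which encode proteins that compete for the same sites, fell by -2.18 and -2.12 and by -1.52 and -1.50 (adjusted p from 2.92e-05 to 0.000361 over these 4 genes and both kinds, limma).

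**Figure D5:**
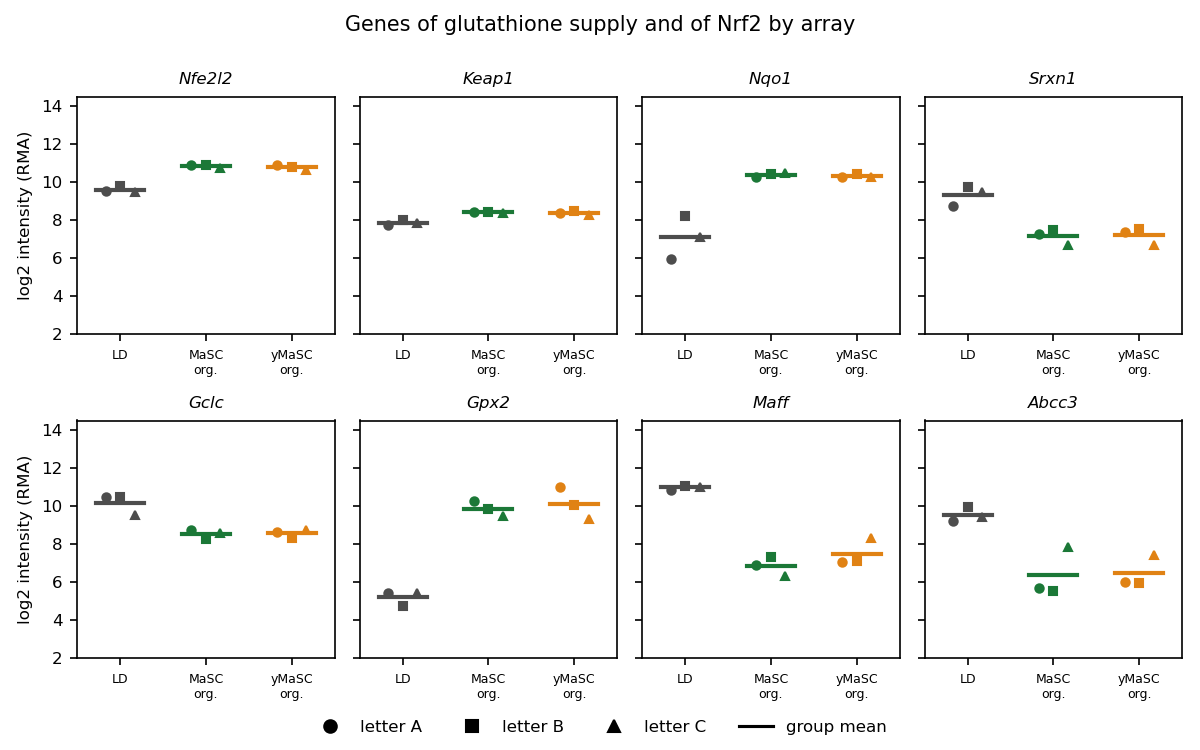
Log2 intensity (vertical axis) of the Nrf2 gene Nfe2l2, its inhibitor gene Keap1, and genes of glutathione supply and Nrf2 action in the 3 kinds of sample (LD cells, then organoids from MaSCs, then those from yMaSCs), with 1 symbol per array by letter and a line for the group mean. Levels of different genes are not comparable. Nfe2l2, Keap1, Nqo1 and Gpx2 are higher in every organoid than in every LD sample, and Srxn1, Gclc, Maff and Abcc3 are lower.

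Retinoid genes around Aldh1a3 were measured for 21 of 23 genes listed, of which 4 were called higher and 6 lower in organoids from MaSCs (19% and 28.6%, against 22.1% and 15.2% of all genes) and 5 and 6 in organoids from yMaSCs (23.8% and 28.6%, against 21.6% and 14.3%). The share higher was near that of all genes. Adh1 and Rdh10, enzymes that oxidize retinol to retinal, the substrate of Aldh1a3, fell: Adh1 by -2.81 and -2.91 log2 (adjusted p = 7.39e-06 and 6.69e-06, limma), a lower limit since all organoids were under the lower quartile, and Rdh10 by -1.68 and -1.72 (adjusted p = 0.0016 and 0.00147, limma). The receptor genes Rxra (1.35 and 1.28, adjusted p = 0.00197 and 0.00271, limma) and Rarb (1.27 and 1.30, adjusted p = 0.00134 and 0.00124, limma) rose, Rarb from LD levels under the lower quartile, so that its values are lower limits.

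Other detoxification enzymes rose more often than they fell, with 8 of 21 measured called higher and 2 lower in organoids from MaSCs (38.1% and 9.52%, against 22.1% and 15.2% of all genes), and 7 and 2 in organoids from yMaSCs (33.3% and 9.52%, against 21.6% and 14.3%). All genes were likewise called higher more often than lower. Next to Cbr3, they were led by the aldehyde oxidase Aox1 (2.87 and 2.90 log2, adjusted p = 2.07e-05 and 2.13e-05, limma), the cytochrome Cyp1b1 (2.73 and 2.48, adjusted p = 0.00128 and 0.00224, limma) and the arylamine acetyltransferase Nat2 (2.39 and 2.37, adjusted p = 4.26e-06 and 4.95e-06, limma). The median difference of this list was 0.39 and 0.55 log2.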

How the data were processed

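Total RNA was extracted with Trizol, labelled as biotinylated cRNA and hybridized to 1 array per sample. The values are log2 intensities that the authors had summarized and normalized with RMA (version not given in the sources used here) and deposited as 1 table. All 9 of its sample columns were used, and it held 0 columns of other samples. Of 45101 probe sets, 34958 carried 1 gene symbol, 932 several and 9211 none in the platform annotation. Those with 1 symbol gave 18194 genes, and where a gene had several, the probe set brightest on average over the 9 arrays stood for it. The members had 68 probe sets, 15 members had more than 1, and all 43 were found by gene identifier in RefSeq, whose promoter table (GRCm38.p6) supplied the sequences. Array number limits the precision.

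Groups were taken from the sample labels. limma 3.58.1 in R 4.3.3 (lmFit, eBayes) was fitted to all genes with the 3 groups, without the letter, and p-values were adjusted by Benjamini-Hochberg over all genes. The letter was tested among the 6 organoid arrays with an F-test of limma. The script was tested on simulated data. Deviations from the group means correlated between organoids of 1 letter (r = 0.607, 0.611 and 0.649 for A, B and C) and from -0.046 to 0.045 between LD cells and organoids of 1 letter, so that letters pair the kinds of organoid and not the LD cells. All members are named. Full values are given for members called with a difference of at least 1 log2 from LD cells or with a letter effect, and for other gene lists, up to 4 called genes with the largest difference in organoids from MaSCs, with Nfe2l2 and Keap1. Values of further members and of genes touching a result were added after they were seen. The members and lists were chosen with earlier results of these data known. Alternatives covered the letter as a fixed or random term, the probe sets used, a filter on low genes, normalization, the variance prior, array weights, the compared groups alone and each array left out. Leaving out both organoids C was added after the data were seen.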

Additional observations from a re-analysis of the deposited data

How the results depend on the processing

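No member changed direction while called under any alternative run. Members higher than LD cells numbered 14 to 18 in organoids from MaSCs and 13 to 19 in organoids from yMaSCs over all alternatives. Members lower numbered 4 to 7 in both. For organoids from MaSCs the number lower, 7 in the report, was 4 among the genes above the median level and between 4 and 7 with 1 array left out, the 4 being reached without LD cells C or without organoids from MaSCs A. No member differed between the kinds of organoid under any alternative. Members with a letter effect, 6 in the report, were 10 of 29 among genes above the median (34.5%, against 12% of those genes) and 13 with a trended and robust prior (30.2%, against 8.44% of all genes), and 0 to 0 with each organoid array left out. All calls of at least 1 log2 against LD cells were kept when any 1 array was left out. With the replicate block over all arrays, 17 members were higher and 7 lower in organoids from MaSCs and 18 and 6 in organoids from yMaSCs. Of the 18194 genes, 4251 were higher and 2926 lower in organoids from MaSCs under this block, and 4176 and 2761 in organoids from yMaSCs. Gsta2 was then called in organoids from MaSCs (1.90, adjusted p = 0.0331, limma) and Gstm3, Aldh3a1 and Aldh7a1 in organoids from yMaSCs (adjusted p = 0.0395, 0.0461 and 0.00456, limma), while Gstk1 there was not (adjusted p = 0.0715, limma). The cause of these changes was not tested. In organoids from MaSCs the rise of Gsta3 was 5.33 with the mean of its probe sets and 8.72 without organoids C. Signals near the floor limit what can be read for Gstt4, Aldh1a1, Aldh1a2, Aldh1b1 and Aldh8a1.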
